A study of Mus musculus with 6 samples.

Results

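The Ikaros zinc finger family comprises 5 genes in the mouse, Ikzf1 (Ikaros), Ikzf2 (Helios), Ikzf3 (Aiolos), Ikzf4 (Eos) and Ikzf5 (Pegasus). They are 5 of the 34745 genes in the deposited tables, taken by symbol with earlier results of these data known. All were examined in bulk RNA-seq of sorted hematopoietic stem cells (HSCs). The cells were CD150+CD34-CD48- cells of the lineage-negative, Sca1-positive, cKit-positive (LSK) fraction from the bone marrow of adult C57BL/6 mice. The 3 WT samples came from mice with the genotype Med23floxp/flowp and the 3 KO samples from mice with the genotype Mx1-cre;Med23floxp/flowp, so both groups carried the floxed Med23 alleles and differed by the Cre transgene. Mx1-cre is driven by an interferon-inducible promoter and deletes in many interferon-responsive cells, not in HSCs alone. The study induced deletion with poly(I:C), which mimics viral RNA, and the labels do not say whether the WT animals of these libraries were injected, how long after induction the cells were sorted, or whether animals were pooled. Values below stand in the order of replicates 1, 2 and 3. Replicates are the samples so labelled, and p-values measure the spread between these samples, which may be technical.

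Ikaros family proteins bind DNA through a group of C2H2 zinc fingers near the amino terminus and pair with one another through a pair of fingers at the carboxy terminus. They act largely by bringing chromatin complexes to their sites, among them the Mi-2/NuRD, Sin3 and CtBP corepressors and the BAF remodelling complex. Ikaros is needed for lymphoid development from its earliest progenitor stages, Aiolos acts in committed B and T cells, Helios and Eos are best known from regulatory T cells, and Pegasus is a divergent member with wide expression. Because the members form mixed dimers, their amounts relative to one another are of interest as well as each amount by itself.

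The coding sequence of the second amino-terminal finger is shown for all members, because the 4 close relatives of the family encode the same residues in it. Fingers are counted in order along each protein, so the second finger of Pegasus need not correspond to that of the others. The sequences run 5′ to 3′ on the coding strand and were read from the GENCODE M21 transcripts (GRCm38), with the codons of the 2 cysteines and 2 histidines that hold the zinc ion in capitals.
Ikzf1: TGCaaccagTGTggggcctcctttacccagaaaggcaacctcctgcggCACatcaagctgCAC
Ikzf2: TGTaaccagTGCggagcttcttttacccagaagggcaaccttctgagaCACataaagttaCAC
Ikzf3: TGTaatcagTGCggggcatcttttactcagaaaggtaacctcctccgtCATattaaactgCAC
Ikzf4: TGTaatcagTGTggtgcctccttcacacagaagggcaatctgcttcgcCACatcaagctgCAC
Ikzf5: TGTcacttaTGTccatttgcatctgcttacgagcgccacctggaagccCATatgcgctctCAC
The Ikzf2 copy lies in exon 5 at chr1:69570581-69570643 on the minus strand, and the Ikzf4 copy in exon 5 at chr10:128640229-128640291 on the minus strand. Ikzf1, Ikzf2, Ikzf3 and Ikzf4 encode the same 21 residues here, although the bases of Ikzf2 match those of Ikzf1 at 51 of 63 positions and those of Ikzf3 and of Ikzf4 at 48 of 63. Ikzf5 shares 5 of the 21 residues with Ikzf2.

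The first of the 2 carboxy-terminal fingers is shown for Ikzf1, Ikzf2 and Ikzf5 because it belongs to the part through which members pair.
Ikzf1: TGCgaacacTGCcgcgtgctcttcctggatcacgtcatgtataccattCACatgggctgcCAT
Ikzf2: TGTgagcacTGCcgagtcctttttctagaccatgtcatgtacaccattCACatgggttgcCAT
Ikzf5: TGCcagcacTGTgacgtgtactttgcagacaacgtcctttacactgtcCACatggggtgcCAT
In this finger Ikzf2 encodes the same 21 residues as Ikzf1, and 14 of them are shared with Ikzf5. The Ikzf2 copy lies in exon 8, at chr1:69538870-69538932 on the minus strand. The longest run of bases that protein-coding transcripts of different members shared exactly was 32, between Ikzf2 and Ikzf4, followed by 26 between Ikzf1 and Ikzf3 and 24 between Ikzf1 and Ikzf4. Protein sequences, translated from the same transcripts, were 515, 526, 507, 586 and 419 residues long for Ikzf1 to Ikzf5.

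Reads counted on genes were between 3537269 and 8131344 per library, and levels are given as CPM, counts scaled to the normalized library size. Med23, the targeted gene, stood at 47.6, 70.8 and 24.1 CPM in WT and 31.6, 29.8 and 36.8 CPM in KO. The study reported efficient loss of Med23 from blood-forming cells after poly(I:C). Counts per gene cannot separate deleted exons from the others, so these values do not measure the deletion. All KO libraries exceeded the library labelled WT replicate 3 in Med23, and KO differed from WT by -0.54 on the log2 scale (SE 0.41, adjusted p = 0.99, edgeR quasi-likelihood test). In some other genes, chosen after their values were seen, the same library lay with the WT group. It had 12.1 CPM of Itgam against 73.7 to 79.8 CPM in KO. Acta1 had 188 counts there against at most 1 in KO, and Myh3 had 329 counts against 0 in KO. These genes are among those with the smallest p between the groups as labelled (edgeR), so they do not test the label of that library. That library and KO replicate 3 stood apart in 4 Y-linked genes, which summed to 1 and 0 counts there and to at least 1036 counts in each of the other libraries. All 10 HSC markers were counted, with sums from 2769 to 3279 CPM in WT and from 2806 to 2993 CPM in KO. Of 10 T cell markers 7 were at 0 in every library, including Cd3e, Cd3d and Cd3g, and Pax5 and Ms4a1 of the 8 B cell markers were also at 0. Kit, Ly6a, Hlf and Esam of the HSC markers were lower and Mecom was higher in every KO library than in any WT library. Of all genes tested, 6.15% were lower and 6.25% higher in this way. The adjusted p of these markers ran from 0.41 for Esam to 0.91 for Kit (edgeR).

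Of the 5 members, 4 passed the filter on low counts and could be tested, Ikzf1, Ikzf2, Ikzf4 and Ikzf5. None of the 4 passed an adjusted p of 0.05 with edgeR, a threshold reached by 0.0719% of the 12513 genes tested, 0.0160% as higher and 0.0559% as lower in KO. None did with DESeq2 either, where 0.960% of genes passed, nor with limma on FPKM or limma voom. At an unadjusted p under 0.05, which 5.71% of genes reached with edgeR, 2.94% as higher and 2.77% as lower in KO, there was 1 member, Ikzf2. Ikzf2 was also the 1 member of the 4 whose groups did not overlap, a pattern shown by 12.4% of genes tested. In HSCs as in any bulk sample, a higher level per cell and a larger share of cells with the transcript cannot be told apart.

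Ikzf2 (ENSMUSG00000025997, chromosome 1 from 69531214 to 69687245, GRCm38) encodes Helios. Its deposited counts were 135, 219 and 111 in the WT libraries and 326, 375 and 313 in the KO libraries. After normalization this was 27.7, 26.9 and 34.3 CPM in WT and 66.0, 68.2 and 63.3 CPM in KO. Every KO library was above every WT library, with a gap between the lowest KO and the highest WT library that was wider than the spread within either group. The means were 29.6 ± 4.06 and 65.9 ± 2.46 CPM (SD, n = 3), and the log2 fold change was 1.15 (SE 0.30), or 2.23-fold with a 95% interval from 1.41-fold to 3.53-fold that is not adjusted for the number of genes. The unadjusted p was 0.0030, rank 96 among the 12513 genes, and the adjusted p was 0.39 (edgeR quasi-likelihood test). DESeq2 gave a log2 fold change of 1.15 and an adjusted p of 0.054, close to the threshold but not past it. An exact two-sided permutation test gave p = 0.1, the smallest value that 3 samples against 3 allow. The study itself singled out Ikzf2 from these libraries as a gene with higher expression in KO, so its values here are not independent evidence of that direction.

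The replicates of Ikzf2 lay close together. The coefficient of variation was 13.7% in WT and 3.73% in KO, where counting error alone would give 8.03% and 5.44% at these counts. Among the members this was the narrowest spread in both groups, since the coefficients of variation were 18.7% and 17.2% for Ikzf1, 36.4% and 46.7% for Ikzf4 and 43.8% and 35.3% for Ikzf5. Leaving out each library in turn kept the log2 fold change of Ikzf2 between 1.09 and 1.27. It came to 1.27 (adjusted p = 0.43, edgeR) when the library labelled WT replicate 3 was dropped, and to 1.31 (adjusted p = 0.62) when replicate 3 of both groups was dropped. Between those 2 libraries alone, which lacked Y-linked counts, KO was 0.88 higher than WT on the log2(CPM + 0.5) scale.

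**Figure D1:**
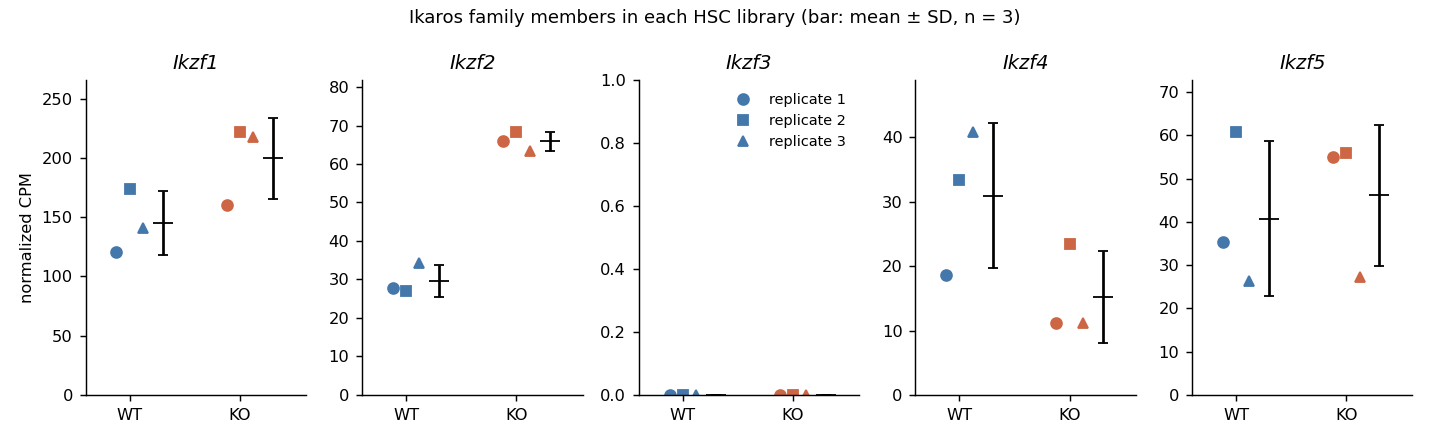
Level in CPM (vertical axes, linear, each from 0) of the 5 Ikaros family genes in the 3 WT (blue) and 3 KO (orange) HSC libraries, with the replicate number as the marker shape and the mean ± SD as black bars. For Ikzf2 the KO libraries sit between 63.3 and 68.2 CPM and the WT libraries between 26.9 and 34.3 CPM, the groups of Ikzf1, Ikzf4 and Ikzf5 overlap, and Ikzf3 is at 0 in all libraries.

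Summed granulocyte markers and summed monocyte and macrophage markers were, like Ikzf2, higher in every KO library than in any WT library. The sums of the erythroid and the megakaryocyte markers overlapped between the groups. The summed level of 9 granulocyte markers was 92.7 to 144.3 CPM in WT and 309.4 to 580.8 CPM in KO, with 8 of the 9 above 10 counts in at least 1 library and Ltf at 0 in all. Prtn3, which encodes proteinase 3 of the primary granules, made up most of it, with 280 to 1150 counts in WT and 1503 to 1756 counts in KO. Of the 3 granulocyte markers that passed the filter, Prtn3 was the only 1 higher in every KO library, as were 6.25% of all genes tested. The separation of this sum is therefore not a rise across the list. The 7 monocyte and macrophage markers summed to 19.1 to 65.2 CPM in WT and 141 to 173.8 CPM in KO, and Itgam and Cd68 made up most of that sum. Csf1r, the receptor that defines monocytes and macrophages, had at most 39 counts in any library and was at 0 in WT replicate 1 and KO replicate 1, and Cx3cr1 had at most 1 count. KO replicate 3 held 867 counts of Mpo, the myeloperoxidase gene of granulocyte precursors, against at most 23 in any other library. Cd34, Cd48 and Flt3, which mark progenitors outside the sorted gate, summed to 341 to 422 CPM in WT and 428 to 566 CPM in KO. Of these only Cd34 separated the groups, at 295.7 to 360.1 CPM in WT and 384.4 to 519.7 CPM in KO, while Flt3 overlapped and Cd48, on whose absence the cells were sorted, had 10, 28 and 0 counts in WT and 0 in every KO library. The 8 skeletal muscle markers summed to 102 to 248 CPM in WT and 3.44 to 6.92 CPM in KO. The part of any of these transcripts in the level of Ikzf2 was not tested.

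Transcripts of regulatory T cells, for which Helios is best known, were at or near 0 apart from Tnfrsf18 and Tnfrsf4. Foxp3, their defining transcription factor, had 2, 1 and 1 counts in WT and 2, 5 and 0 counts in KO, Il2ra was at 0 in all libraries, and Ctla4 had a single count in all. The 5 markers of that list summed to between 51.0 and 56.3 CPM in WT and between 45.4 and 67.2 CPM in KO, nearly all of it Tnfrsf18, whose log2 fold change was 0.0050 (SE 0.30).

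Ikzf1 (ENSMUSG00000018654, chromosome 11 from 11685003 to 11772926), the founding member, had the most counts of the family. It was counted at 120.4, 174.1 and 140.9 CPM in WT and at 160.1, 221.7 and 217.3 CPM in KO. KO replicates 2 and 3 were above all WT libraries, whereas KO replicate 1 lay below WT replicate 2, so the groups overlapped. The log2 fold change was 0.46 (SE 0.23, adjusted p = 0.93, edgeR), with a 95% interval from -0.059 to 0.98. The estimate stayed between 0.34 and 0.61 when each library was left out in turn.

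Ikzf4 (ENSMUSG00000002578, chromosome 10 from 128630843 to 128645991), which encodes Eos, had the opposite sign. It was at 18.7, 33.4 and 40.8 CPM in WT and at 11.1, 23.5 and 11.1 CPM in KO. KO replicates 1 and 3 lay below all WT libraries, and KO replicate 2 lay between WT replicates 1 and 2. The mean level was 31.0 ± 11.3 CPM in WT and 15.3 ± 7.13 CPM in KO (SD, n = 3), and the log2 fold change was -1.02 (SE 0.49, adjusted p = 0.92, edgeR) with a 95% interval from -2.12 to 0.081. When the library labelled WT replicate 3 was dropped the estimate was -0.77, when KO replicate 2 was dropped it was -1.47, and when replicate 3 of both groups was dropped it was -0.57. Between those 2 dropped libraries the KO level minus the WT level was -1.83 on the log2(CPM + 0.5) scale.

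Ikzf5 (ENSMUSG00000040167, chromosome 7 from 131388652 to 131410521), which encodes Pegasus, was lowest in replicate 3 of both groups. It was at 35.3, 60.7 and 26.3 CPM in WT and at 55.1, 55.9 and 27.3 CPM in KO. The groups overlapped over most of their range, and the 2 lowest libraries were those without Y-linked counts. In the same 2 libraries the noncoding genes Gm26917 and Gm42418, chosen after their values were seen, took 18.1% and 11.96% of all counts, against 6.11% to 10.5% in the other libraries. The part of either in the level of Ikzf5 was not tested. The estimated log2 difference of KO from WT was 0.17 (SE 0.42, adjusted p = 0.997, edgeR) with a 95% interval from -0.77 to 1.11, and its sign turned, to -0.060, when the library labelled WT replicate 3 was left out. In GENCODE M21, exons of Ikzf5 overlap exons of Pstk on the other strand by 4652 bases. The FPKM length of Pstk is 4183 bases, shorter than that stretch, so the annotation behind the counts differed there and the overlap in it is not known. The strand setting is not given in the sources used here either, so it is not known how reads shared by both genes were counted. Pstk, chosen after its values were seen, was at 16.7 to 29.4 CPM in WT and 13.4 to 19.7 CPM in KO.

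Ikzf3 (ENSMUSG00000018168, chromosome 11 from 98464902 to 98546031), which encodes Aiolos, had no count in any of the 6 libraries. With 3 counts as the limit that a count of 0 allows, its level was below 0.369 CPM in the deepest library and below 0.927 CPM in the shallowest, which covers counting error only. The other member on that chromosome, Ikzf1, had at least 456 counts in each library.

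**Figure D2:**
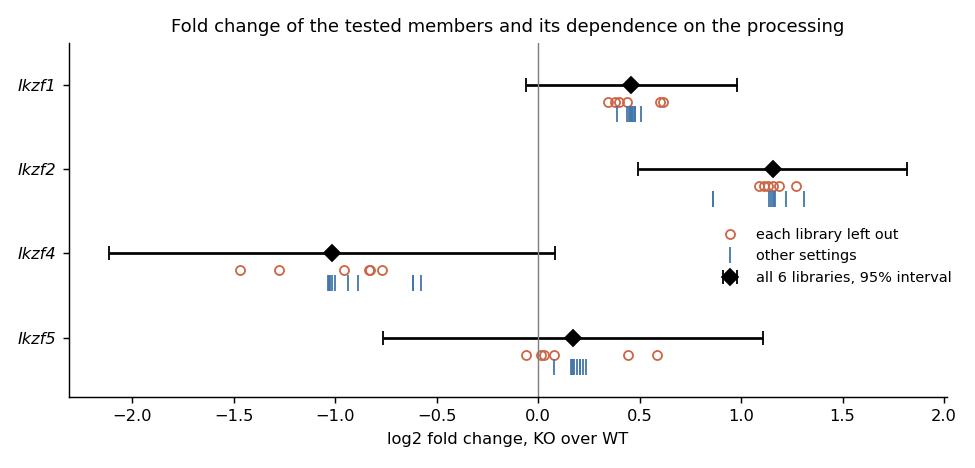
Log2 fold change of KO over WT (horizontal axis) for the 4 members that passed the filter, with black diamonds and lines for the edgeR estimate and its 95% interval, open circles for fits that leave out 1 library and blue ticks for the other settings. The estimates of Ikzf2 lie between 0.86 and 1.31 and those of Ikzf4 between -1.47 and -0.57, while those of Ikzf5 lie on both sides of 0.

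Levels of different members were compared per length. The deposited FPKM values use, for Ikzf1, Ikzf2 and Ikzf4, a gene length equal to the sum of all distinct annotated exons with overlaps counted repeatedly (10847, 17291 and 11788 bases), which is longer than the merged exons (5777, 11613 and 5995 bases) and lowers genes with many overlapping exons. For Ikzf5 the FPKM length was 7025 bases, which equals neither its summed (9672 bases) nor its merged (5721 bases) exons in GENCODE M21, so its level per length depends on the annotation. Levels were therefore also given as CPM per kilobase of merged exons, a scale added after these lengths were seen. On that scale Ikzf1 was at 25.1 ± 4.70 in WT and 34.6 ± 5.95 in KO (SD, n = 3), higher than any other member in every library. It made up 63.0 ± 1.08% of the summed level of the family in WT and 67.9 ± 7.12% in KO. Ikzf5 came next by its mean, at 7.12 ± 3.12 in WT and 8.06 ± 2.84 in KO, and made up 17.5 ± 5.13% and 15.98 ± 5.98% of the family, against 24.2 ± 6.61% and 21.8 ± 7.61% by FPKM.

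The order of Ikzf2 and Ikzf4 differed between the groups. Per kilobase of merged exons Ikzf2 was at 2.38, 2.32 and 2.95 in the WT libraries and at 5.69, 5.88 and 5.45 in the KO libraries. Ikzf4 was at 3.11, 5.58 and 6.80 in WT and at 1.86, 3.92 and 1.86 in KO. In WT, Ikzf2 was thus the lowest of the 4 detected members in each library and Ikzf4 overlapped with Ikzf5, whereas in KO Ikzf4 was the lowest in each library and Ikzf2 overlapped with Ikzf5. By FPKM, Ikzf5 (3.42 to 8.65) did not overlap with Ikzf4 (1.63 to 3.17) in WT.

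The ratio of Ikzf2 to Ikzf4 on this scale was 0.766, 0.416 and 0.434 in WT and 3.06, 1.50 and 2.94 in KO, below 1 in all WT libraries and above 1 in all KO libraries. On the FPKM scale the ratio was 1.01, 0.549 and 0.573 in WT and 4.04, 1.98 and 3.88 in KO, so there WT replicate 1 stood just above 1 and the groups still did not overlap. This ratio was chosen after the values of both genes were seen and was not tested. As a share of the family per kilobase, Ikzf2 was at 6.57 ± 1.57% in WT and 11.3 ± 1.29% in KO and Ikzf4 at 12.9 ± 4.17% and 4.88 ± 1.64%, in both cases without overlap between the groups. The ratio of Ikzf1 to Ikzf2 per kilobase was 8.74, 13.0 and 8.26 in WT and 4.87, 6.53 and 6.90 in KO, also without overlap. The Ikzf2 share and both ratios contain the Ikzf2 level, whose groups did not overlap, so they are not separate evidence. The summed level of the family overlapped between the groups, at 32.5, 48.6 and 38.7 in WT and 44.9, 57.9 and 49.7 in KO.

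**Figure D3:**
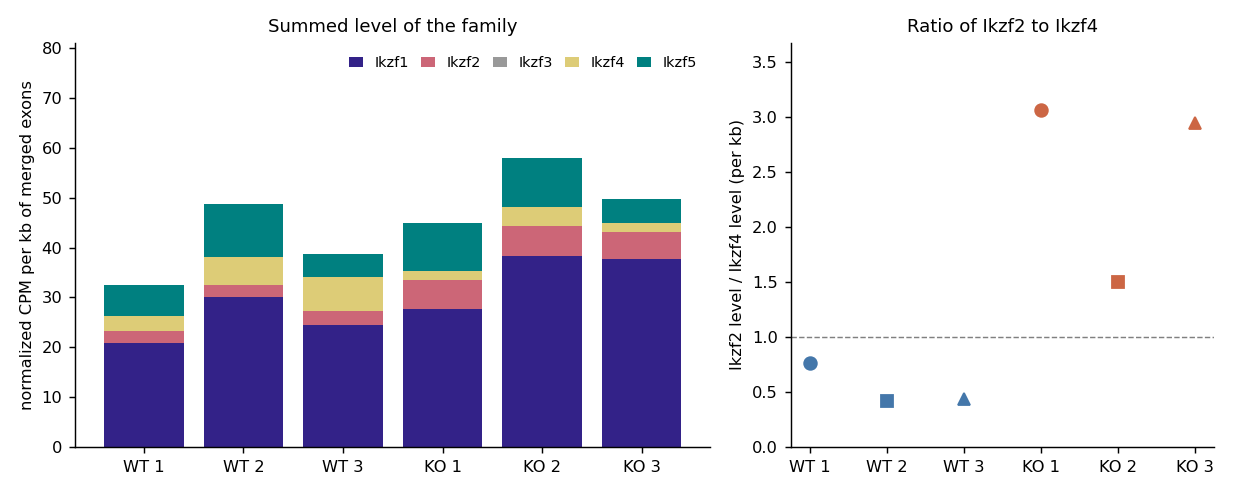
Left, level of each member in CPM per kilobase of merged exons (vertical axis), stacked for each of the 6 libraries. Right, ratio of the Ikzf2 level to the Ikzf4 level on the same scale, with a dashed line at 1 and marker shapes for replicate numbers: the WT libraries (blue) lie between 0.416 and 0.766 and the KO libraries (orange) between 1.50 and 3.06.

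Genes whose proteins work with the family were read from lists of known partners. Of 17 corepressor genes all passed the filter and none passed an adjusted p of 0.05 (edgeR). Their median log2 fold change was -0.029, against -0.0054 over all genes tested, with 7 estimates higher and 10 lower. Chd3, which encodes the Mi-2 alpha helicase of NuRD, was the 1 gene of the list at an unadjusted p under 0.05, with 72.4, 113.7 and 149.0 CPM in WT and 175.9, 166.2 and 311.6 CPM in KO. Every KO library was above every WT library, as was the case for 6.25% of all genes tested. Its log2 fold change was 0.97 (SE 0.33, adjusted p = 0.66, edgeR). Chd4, the Mi-2 beta helicase and the NuRD ATPase best known as a partner of Ikaros, was higher per length than Chd3, with FPKM means of 34.4 in WT and 35.3 in KO, and had a log2 fold change of -0.020 (SE 0.20), a gene chosen after its values were seen. The histone-binding subunit Rbbp7 and the NuRD subunit Mta2 had the highest FPKM of the list and log2 fold changes of -0.029 and 0.068.

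All 16 genes of the BAF complex passed the filter, and none reached an unadjusted p under 0.05 in either direction. The median of the list was -0.036 on the log2 scale, and Smarcc2 and Smarcd1, the 2 with the highest FPKM, were at 0.075 and -0.012. Smarcd3, chosen after its values were seen, had the lowest estimate, -1.30 (SE 0.64, adjusted p = 0.92, edgeR), and its groups overlapped. Of 11 genes for casein kinase 2, protein phosphatase 1 and the cereblon ubiquitin ligase, which phosphorylate, dephosphorylate and, under thalidomide-type drugs, degrade Ikaros proteins, again none reached an unadjusted p under 0.05. The median was -0.13, and Ppp1ca and Ddb1, the most abundant per length, were at -0.13 and -0.17. Crbn, the cereblon gene, was at 74.0, 45.6 and 26.9 CPM in WT and at 92.4, 48.4 and 64.1 CPM in KO, which overlapped, and was chosen after its values were seen.

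Of 20 lymphoid genes tied to Ikaros, 8 passed the filter and 12 did not. Among the 12, Il7r, Rag1, Rag2, Ccr9, Pax5, Igll1 and Cd3e were at 0 in every library, and Dntt, which encodes the terminal transferase of early lymphoid progenitors, had 2 and 52 counts in WT replicates 1 and 2 and none elsewhere. For the 8 tested genes the median was -0.25 on the log2 scale, with 3 estimates higher and 5 lower and none past the adjusted threshold. Cd79b and Tcf3, the 2 with the highest FPKM, were at 0.19 and 0.26.

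Of 11 genes of the Notch pathway, which Ikaros opposes in thymocytes, 8 were tested, and their median was -0.32 on the log2 scale. Myc, a growth regulator, was at 101.5, 110.5 and 218.8 CPM in WT and at 44.0, 73.9 and 77.9 CPM in KO. Every KO library was below every WT library, a pattern shown by 6.15% of all genes tested, and the log2 fold change was -1.13 (SE 0.36, unadjusted p = 0.0093, adjusted p = 0.56, edgeR). Notch2, the most abundant receptor of the list, was higher in every KO library but by a small amount, with a log2 fold change of 0.20 (SE 0.18, adjusted p = 0.99, edgeR). The Notch target genes Hes1, Hey1 and Dtx1 were too low to be tested.

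**Figure D4:**
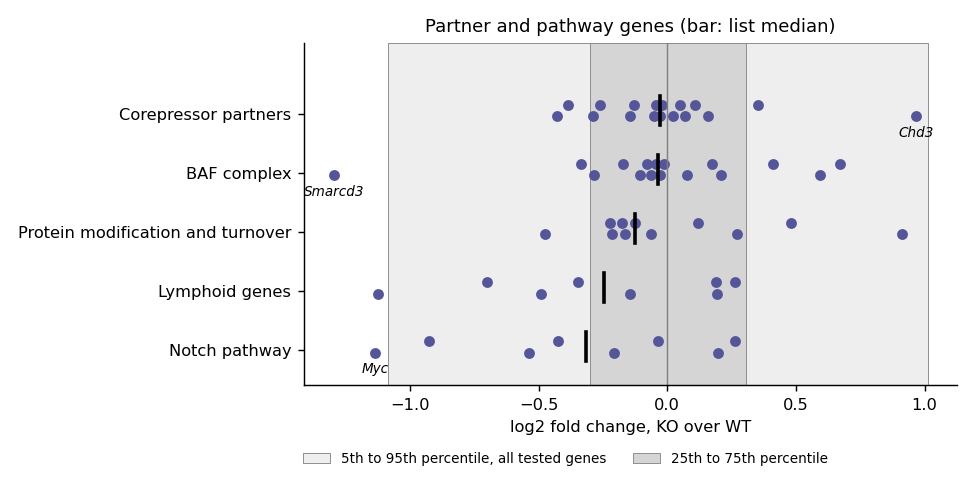
Log2 fold change of KO over WT (horizontal axis) for the tested genes of 5 lists tied to Ikaros function, 1 point per gene, with the list median as a black bar and shaded bands for the middle of all 12513 tested genes. The list medians run from -0.32 to -0.029, and Chd3, Smarcd3 and Myc are named.

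The genes most like each tested member over the 6 libraries were found by the root mean square difference between centred log2(CPM + 0.5) values, among 8420 genes with a mean of at least 20 CPM. For Ikzf2 these were Mtdh (0.12), Pkp3 (0.12) and Glipr1 (0.13), where the median over all compared genes was 0.69. Mtdh, which encodes metadherin, was at 126.9, 117.2 and 191.0 CPM in WT and at 327.0, 307.4 and 319.1 CPM in KO, and Pkp3, which encodes the desmosome protein plakophilin 3, was at 28.5, 22.7 and 30.0 CPM in WT and at 56.3, 64.6 and 66.0 CPM in KO. For Ikzf1 they were Birc6 (0.082), Limd2 (0.094) and Rinl (0.094), and for Ikzf4 Coq2 (0.17), Srm (0.21) and Obsl1 (0.22). For Ikzf5 they were Selo (0.070), Med12l (0.095) and Atf6b (0.11), each of them, like Ikzf5, lowest in replicate 3 of both groups. These likenesses rest on 6 libraries and say nothing of a shared function.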

How the data were processed

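Each library held RNA of one sorted HSC sample, with 3 labelled WT and 3 labelled KO. The tables deposited by the authors give whole-number read counts for each gene and, separately, FPKM, in which the count is scaled to gene length and library size. The submitters' processing notes name TopHat, HTSeq and mm10, while versions, annotation and strand setting are not given in the sources used here. The labels describe SMART-Seq v4 amplification, the study's methods a TruSeq kit. No molecular identifiers are described. For genes with at least 100 counts whose summed and merged GENCODE M21 exon lengths differ (10529), the FPKM length equalled the summed distinct exons within 0.5 bases for 6854 and the merged exons for 24.

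The main test was the robust quasi-likelihood test of edgeR 4.0.16 (R 4.3.3, filterByExpr defaults, TMM, Benjamini-Hochberg adjustment over all genes tested). The procedure was also run on simulated counts with set fold changes, and the outcome is not reported here. Those counts were drawn without replicate or Y-linked differences, so that run does not bear on such differences. Members were also compared by an exact two-sided permutation test of log2(CPM + 0.5). Alternatives were DESeq2 1.42.0, upper-quartile scaling, other filters, a replicate block, limma 3.58.1 on log2(FPKM + 1) and log2(FPKM + 0.1), limma voom with quality weights, and libraries left out. Coordinates and sequences come from GENCODE M21 (GRCm38), and zinc fingers were found by the spacing of cysteine and histidine residues.

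The members and gene lists were chosen with earlier results of these data known. Named are the members, Med23, up to 4 genes per list and direction at an unadjusted p under 0.05 without overlap, the 2 genes per list with the highest FPKM, the 3 genes most like each member, and up to 3 markers per list. Other genes are marked as chosen after their values were seen, apart from genes named for a count at or near 0 or for a count of genes that did not overlap. Some results of the gene lists and zinc fingers are not reported here.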

Additional observations from a re-analysis of the deposited data

How the results depend on the processing

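The direction of Ikzf1, Ikzf2 and Ikzf4 was the same in all 16 alternatives run for each, and no alternative brought any of the 4 tested members past an adjusted p of 0.05. Ikzf3, at 0 throughout, gave no value under any of them. For Ikzf2 the adjusted p ran from 0.054 with DESeq2 to 0.86 without KO replicate 1. When libraries were dropped singly, the log2 fold change of Ikzf5 ran from -0.060, without the library labelled WT replicate 3, to 0.58, without WT replicate 2. The number of genes past the threshold, 9 with edgeR, was 120 with DESeq2 (50 higher and 70 lower), 15 with limma on log2(FPKM + 1) at a mean FPKM of at least 1, and 5 with the replicate block. It was 0 with limma voom and quality weights, where 948 genes were at an unadjusted p under 0.05. It ran from 5, without WT replicate 1, to 11, without WT replicate 2. The cause of these differences was not tested. Same-numbered WT and KO libraries had correlations across genes of 0.170, 0.032 and 0.170 in their deviations from the group means. Of the differently numbered pairs, WT replicate 2 and KO replicate 1 were at 0.035, and the others ran from -0.173 to -0.010. The study states no pairing, and the main test had no replicate term. Whether same-numbered libraries share an animal pair or a batch was not tested. With the replicate block the log2 fold changes were 0.46 for Ikzf1, 1.16 for Ikzf2, -1.03 for Ikzf4 and 0.19 for Ikzf5. No member passed an adjusted p of 0.05 there. Ikzf1 joined Ikzf2 under an unadjusted p of 0.05 (0.030 and 0.0046, edgeR with the block). That level was reached by 1005 of the 12513 genes tested. The 3 samples per group and the 55 to 375 counts per library for Ikzf2 and Ikzf4 limit the precision of these estimates.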

Other observations

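Inside an intron of Ikzf2 the annotation holds a separate sense-strand transcript, Gm28112 (1875 bases, chromosome 1 from 69660187 to 69662061), chosen after its values were seen. Its deposited counts were 128, 259 and 157 in the WT libraries and 168, 354 and 209 in the KO libraries, where Ikzf2 itself had 135, 219 and 111 and 326, 375 and 313. After normalization this was 26.2, 31.8 and 48.5 CPM in WT and 34.0, 64.4 and 42.3 CPM in KO, so the groups overlapped, unlike those of Ikzf2. The log2 fold change was 0.41 (SE 0.39, adjusted p = 0.99, edgeR quasi-likelihood test), with a 95% interval from -0.45 to 1.26. The interval of Ikzf2, from 0.49 to 1.82, overlaps it, and the difference between the 2 was not tested. The transcript Gm29114 on the other strand, also chosen after its values were seen, shares 144 bases of exon with Ikzf2 and had 33 counts in KO replicate 1 and at most 1 in any other library.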
